A study of Mus musculus with 12 samples.

Results

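A set of 7 genes known for their expression in Kupffer cells, the resident macrophages of the liver sinusoids, was followed in bulk RNA sequencing of mouse liver and tumor. They were Clec4f, Vsig4, Timd4, Cd5l, Marco, Folr2 and Cd163. They were taken by gene symbol, and all 7 of 7 were present among the 52636 genes of the count table. The 12 libraries fell into 4 groups of 3. The groups were liver after the anti-HER2/CD3 antibody, liver after vehicle, tumor after the antibody and tumor after vehicle. The antibody is a T cell dependent bispecific (TDB) that binds HER2 with one arm and CD3 on T cells with the other, clone name 4D5-2C11. It was given once into the tail vein at 5 mg/kg, or vehicle buffer in the same volume, and organs were taken 24 h later. All mice, vehicle mice included, were female wild-type FVB/NJ mice that carried a transplanted piece of Fo5 tumor in the mammary fat pad. Fo5 comes from a founder line that expresses HER2 as a transgene from the MMTV promoter, so HER2 here is a transgene product of the tumor graft. RNA came from dissociated tissue, with no sort named in the labels, so fewer cells of a type and less RNA per cell cannot be told apart for any gene below.

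Kupffer cells line the sinusoids and clear particles, bacteria, dying cells and old red cells from portal blood. Clec4f is a C-type lectin for galactose-type sugars and is close to restricted to Kupffer cells in the mouse. Vsig4 is a complement receptor that captures particles coated with C3 fragments. Marco and Cd163 are scavenger receptors, Marco for bacteria and particles and Cd163 for complexes of hemoglobin with haptoglobin. Timd4 binds phosphatidylserine on dying cells, Cd5l is a secreted protein that travels in blood with IgM, and Folr2 is a folate receptor of resident macrophages. Marco, Folr2, Cd163 and Timd4 are also found in resident macrophages of other tissues.

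Deposited totals ranged from 18460159 to 29396324 counts per library. Library 3 of the TDB livers stood apart from the other livers. Its score on the first principal component of liver was 97.1, against a range of -61.8 to 6.14 in the other 5, and mitochondrial genes took 2.05% of its counts, against 0.847% to 1.28%. Values with and without this library are given below. Albumin took 4.55e-06% to 0.00332% of the counts of the tumor libraries, against 7.96% to 14.3% in liver. All 12 within-group pairs of libraries differed by more than sampling noise. Nothing in the labels pairs a liver with the tumor of the same mouse. Each p-value weighs a difference between groups against the spread of the 3 libraries within groups, as the fit estimates it with help from all genes.

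The liver held all 7 genes, and the order of their levels was not the same in the 2 liver groups. Levels between genes were compared as CPM per kilobase (kb) of exonic length, where CPM is a gene's counts scaled to a fixed library total of 1000000. In TDB livers the order by mean was Cd5l with 122 CPM per kb, Clec4f with 70.5, Marco with 50.4, Vsig4 with 21.8, Timd4 with 13.8, Folr2 with 8.84 and Cd163 with 0.536. In vehicle livers it was Clec4f with 111 CPM per kb, Cd5l with 82.9, Vsig4 with 38.2, Folr2 with 11.0, Timd4 with 6.97, Marco with 6.85 and Cd163 with 0.597. The ranges over libraries of Clec4f and Marco overlapped in TDB livers, those of Clec4f and Cd5l and of Timd4 and Marco overlapped in vehicle livers, and the other neighbours in each order did not overlap. Within every TDB library Cd5l stood above Clec4f per kb, and within every vehicle library it stood below.

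The starts of the 3 genes on which the comparisons turn most are shown next: Marco, which was called in liver, Timd4, which was called in tumor, and Clec4f, which had no count in tumor. Each sequence is the RefSeq promoter of the GRCm38.p6 assembly, 5′ to 3′ on the strand of the gene, from the window of 250 bases before the start in RefSeq. For Marco and Timd4 the whole window is shown; the start of Timd4 in RefSeq differs slightly from the GENCODE start given below. For Clec4f the first 179 bases are shown, up to the GENCODE start. Capitals mark matches to 5 motifs that were searched on both strands.
Marco, chr1:120505025-120505274, minus strand: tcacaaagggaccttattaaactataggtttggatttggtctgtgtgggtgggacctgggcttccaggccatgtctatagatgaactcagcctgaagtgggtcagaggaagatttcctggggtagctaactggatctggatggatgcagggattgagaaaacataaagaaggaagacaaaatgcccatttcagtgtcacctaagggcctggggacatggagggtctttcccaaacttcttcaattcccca
Timd4, chr11:46810549-46810798, plus strand: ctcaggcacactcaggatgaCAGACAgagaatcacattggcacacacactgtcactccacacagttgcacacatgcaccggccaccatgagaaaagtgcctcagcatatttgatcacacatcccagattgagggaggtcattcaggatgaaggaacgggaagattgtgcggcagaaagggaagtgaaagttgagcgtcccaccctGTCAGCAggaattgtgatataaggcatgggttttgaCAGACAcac
Clec4f, chr6:83656188-83656366, minus strand: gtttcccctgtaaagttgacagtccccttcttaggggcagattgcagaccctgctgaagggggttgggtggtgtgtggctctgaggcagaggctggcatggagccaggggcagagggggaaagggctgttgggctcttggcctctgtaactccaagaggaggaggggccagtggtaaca
The motifs were TTCNNNGAA, the interferon-gamma activated site; the interferon-stimulated response element, searched as 2 runs of GAAA with any 2 bases between them; GAGGAAGT, a PU.1 site; TGCTGAC, a MAF recognition site; and CAGACA, a SMAD box. The whole windows of all 7 genes were searched, whether shown or not, and that of Timd4 alone held matches: CAGACA from 230 to 225 and from 9 to 4 bases before the RefSeq start, and TGCTGAC on the reverse strand from 45 to 39 bases before it. Among 32851 mouse promoters of 250 bases, CAGACA was found in 17.1%, TGCTGAC in 3.81%, TTCNNNGAA in 7.02%, the interferon-stimulated response element in 2.98% and GAGGAAGT in 2.44%. A match describes these letters and is not evidence of a bound site, and an empty window says only that the letters are not in it.

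The first comparison asked whether the antibody was followed by a change of the Kupffer cell genes in liver. Of the 7 genes, 1 was called, Marco, and it was higher after TDB. Counts were tested with edgeR (quasi-likelihood), and p-values were adjusted by the Benjamini-Hochberg method over 13657 genes. Over all these genes 0.535% were called, 0.513% higher and 0.022% lower. Without the adjustment 3 of the 7 had p under 0.05, and so did 1105 of the 13657. The median log2 fold change of the 7 genes was -0.28, against 0.04 over all genes. The CPM of the 2 groups did not overlap for 5 of the 7 genes, 3 higher after TDB and 2 lower. The same held for 15.6% of all genes, 11.9% higher and 3.67% lower. After scaling by edgeR's trimmed mean of M-values (TMM), Cd5l overlapped and 4 of 7 genes did not, against 14.6% of all genes.

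Marco lies on chromosome 1 at 120474538 to 120505024 of GRCm38, minus strand (ENSMUSG00000026390). Its level was 51.0, 82.8 and 157 CPM in TDB livers, against 15.8, 8.49 and 15.2 CPM in vehicle livers. All 3 TDB libraries were higher than all 3 vehicle libraries, with the highest value in library 3, the one that stood apart. The means were 97.0 ± 54.5 CPM in TDB livers and 13.2 ± 4.07 CPM in vehicle livers (SD, n = 3 each). Marco rose by 2.75 on the log2 scale (SE 0.42, edgeR adjusted p = 0.043). Without TDB library 3 the log2 fold change was 2.29 (edgeR adjusted p = 0.010). The call was lost when vehicle library 1, 2 or 3 or TDB library 2 was left out, with edgeR adjusted p of 0.25, 0.20, 0.25 and 0.16 and log2 fold changes of 2.89, 2.54, 2.85 and 2.81. It was also lost when counts were scaled by library size alone (edgeR adjusted p = 0.052), which moved the median over all genes to 0.15, against 0.04 with TMM.

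Cd163, the other scavenger receptor, lies on chromosome 6 at 124304656 to 124330527, plus strand (ENSMUSG00000008845). Its level in liver was 2.03, 1.88 and 4.87 CPM after TDB, against 3.25, 2.20 and 4.33 CPM after vehicle. The groups overlapped, and the log2 fold change was -0.28 (SE 0.42, edgeR adjusted p = 0.87).

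Clec4f lies on chromosome 6 at 83644542 to 83656187, minus strand (ENSMUSG00000014542). Its level was 215, 203 and 104 CPM in TDB livers, against 257, 338 and 227 CPM in vehicle livers. The groups did not overlap and TDB library 3 was the lowest. The log2 fold change was -0.75 (SE 0.35) and did not pass the test (edgeR adjusted p = 0.67). Without TDB library 3 it was -0.45.

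Vsig4, the complement receptor, lies on chromosome X at 96247203 to 96293438, minus strand (ENSMUSG00000044206). It measured 36.3, 31.6 and 29.0 CPM in TDB livers, against 60.8, 60.2 and 49.0 CPM in vehicle livers. The groups were apart by more than their own ranges, with means of 32.3 ± 3.72 CPM after TDB and 56.6 ± 6.66 CPM after vehicle (SD, n = 3 each). The log2 fold change of -0.91 (SE 0.23) had an unadjusted p of 0.0038 and did not pass the adjustment in edgeR (adjusted p = 0.21). DESeq2 called it lower (adjusted p = 0.026).

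Timd4, the phosphatidylserine receptor, lies on chromosome 11 at 46810800 to 46844332, plus strand (ENSMUSG00000055546). It measured 27.4, 30.6 and 32.0 CPM in TDB livers, against 16.3, 14.4 and 14.7 CPM in vehicle livers. The groups did not overlap, and the replicates were close, with means of 30.0 ± 2.37 CPM after TDB and 15.2 ± 1.01 CPM after vehicle (SD, n = 3 each). The log2 fold change was 0.87 (SE 0.19), with an unadjusted p of 0.0021 and an edgeR adjusted p of 0.16. DESeq2 called it higher (adjusted p = 0.0072).

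Cd5l, the secreted protein, lies on chromosome 3 at 87357881 to 87371073, plus strand (ENSMUSG00000015854). It measured 263, 275 and 208 CPM in TDB livers, against 174, 201 and 132 CPM in vehicle livers. The lowest TDB library was just above the highest vehicle library, and the log2 fold change was 0.45 (SE 0.26, edgeR adjusted p = 0.75). Folr2, the folate receptor, lies on chromosome 7 at 101839988 to 101857194, minus strand (ENSMUSG00000032725). It measured 17.4, 14.5 and 9.10 CPM in TDB livers, against 18.0, 20.7 and 12.3 CPM in vehicle livers. The groups overlapped, with a log2 fold change of -0.41 (SE 0.35, edgeR adjusted p = 0.82). The Folr2 locus overlaps Gm10602 and Gm45319 on the plus strand, and whether the counting used strand is not given in the sources used here.

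Without TDB library 3 none of these 6 genes passed edgeR either. Their log2 fold changes were then -0.79 for Vsig4 (edgeR adjusted p = 0.14), 0.88 for Timd4 (0.065), 0.61 for Cd5l (0.36), -0.15 for Folr2 (0.92) and -0.79 for Cd163 (0.49), beside -0.45 for Clec4f (0.59).

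**Figure D1:**
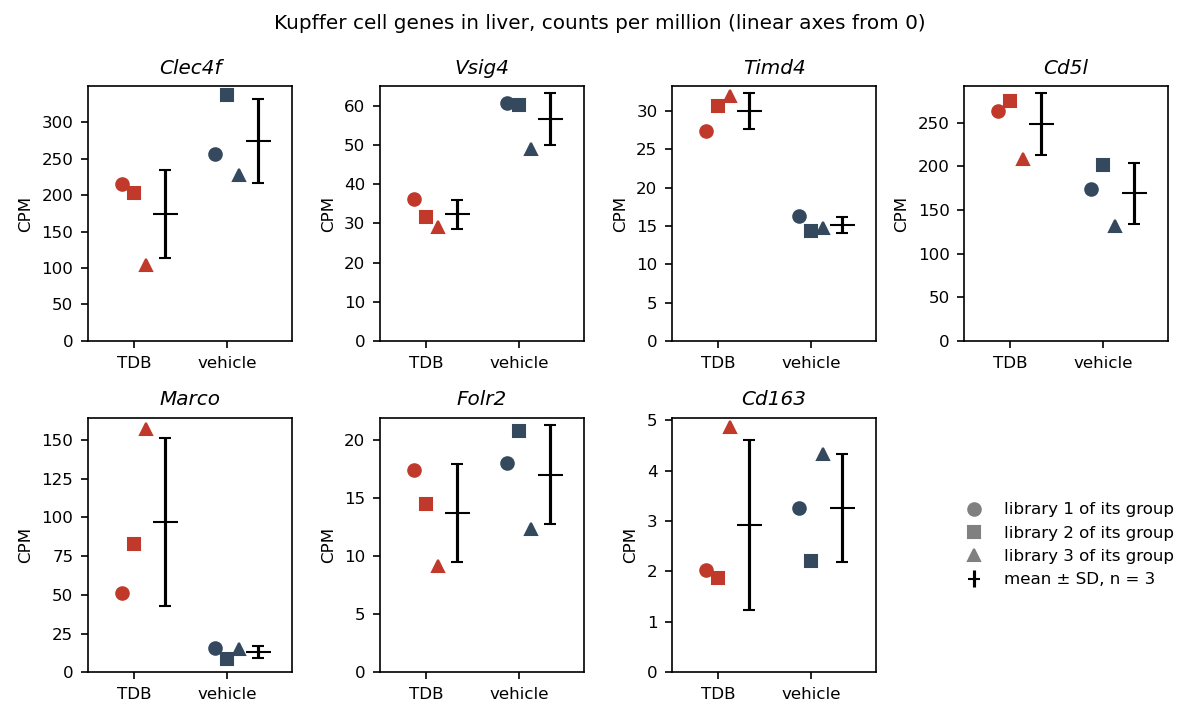
Level of each Kupffer cell gene in the 3 TDB and the 3 vehicle liver libraries, in CPM on linear axes that start at 0; points are libraries and the bar is the mean ± SD (n = 3). Marco, Timd4 and Cd5l lie higher in all 3 TDB libraries, Clec4f and Vsig4 lie lower, and Folr2 and Cd163 overlap.

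**Figure D2:**
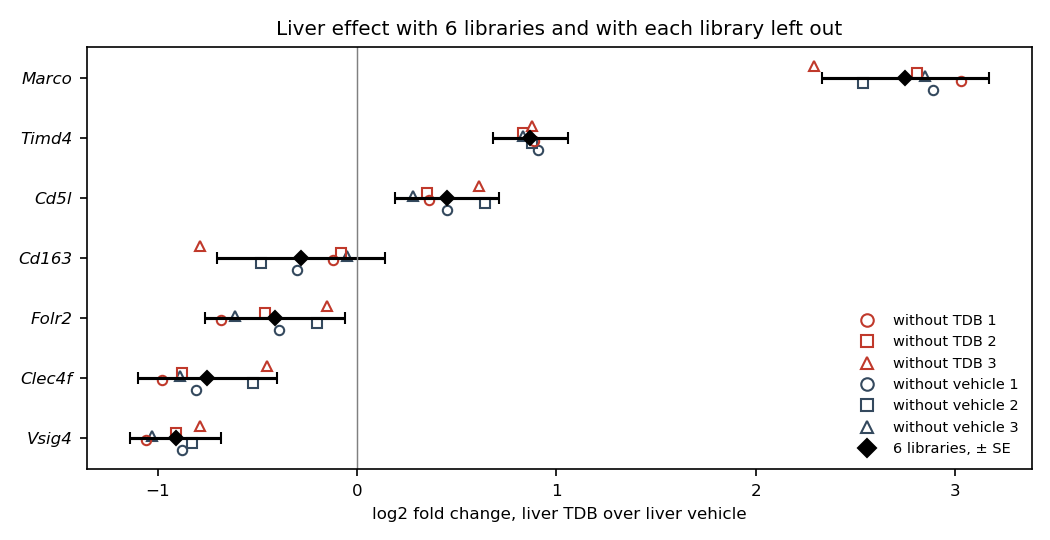
Log2 fold change of each gene in liver, TDB over vehicle, in the fit of all 6 libraries and in the 6 fits that leave out 1 library each. Marco stays between 2.29 and 3.03 and Clec4f between -0.98 and -0.45, so each keeps its sign, while the call of Marco does not hold in 4 of the 6 fits.

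The shares of Clec4f, Vsig4, Timd4, Cd5l and Marco in the summed level of the 7 genes did not overlap between the liver groups. The summed CPM of the 7 genes was 544 to 640 after TDB and 454 to 645 after vehicle, so the sums overlapped. Clec4f made up 19.1% to 35.1% of that sum after TDB, against 47.1% to 52.4% after vehicle. Marco made up 8.33% to 28.9% after TDB, against 1.32% to 3.36% after vehicle. Vsig4 made up 4.94% to 5.93% after TDB, against 9.34% to 11.2% after vehicle. Timd4 made up 4.47% to 5.89% after TDB, against 2.24% to 3.25% after vehicle. For Cd5l it was 38.2% to 43.1% after TDB, against 29.0% to 31.9% after vehicle. The shares of Folr2 and Cd163 overlapped. Shares of a common sum are tied, so a rise of one gene lowers the shares of the others. They were not tested.

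Counts were also set against Clec4f within each library, which takes out total depth and scaling. Per 100 Clec4f counts there were 23.7, 40.8 and 151 Marco counts in TDB livers, against 6.16, 2.52 and 6.72 in vehicle livers. For Cd5l there were 122, 136 and 199 in TDB livers, against 67.7, 59.5 and 58.1 in vehicle livers. For Timd4 there were 12.7, 15.1 and 30.8 in TDB livers, against 6.35, 4.27 and 6.50 in vehicle livers. These 3 ratios were higher in every TDB library, and each was highest in library 3, where Clec4f itself was lowest. The Folr2 ratio was also higher in every TDB library, with 8.07, 7.15 and 8.75 after TDB, against 7.00, 6.12 and 5.44 after vehicle. The Vsig4 ratio overlapped, with 16.9, 15.6 and 27.9 after TDB, against 23.7, 17.8 and 21.6 after vehicle, and so did that of Cd163. A ratio shows unequal change of 2 genes and not which of them changed. Clec4f was lower in every TDB liver than in every vehicle liver, so an unchanged gene can also show a higher ratio. The CPM of Folr2 itself overlapped between the groups. The share of all genes with such a separation of ratios was not computed. These ratios were not tested.

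**Figure D3:**
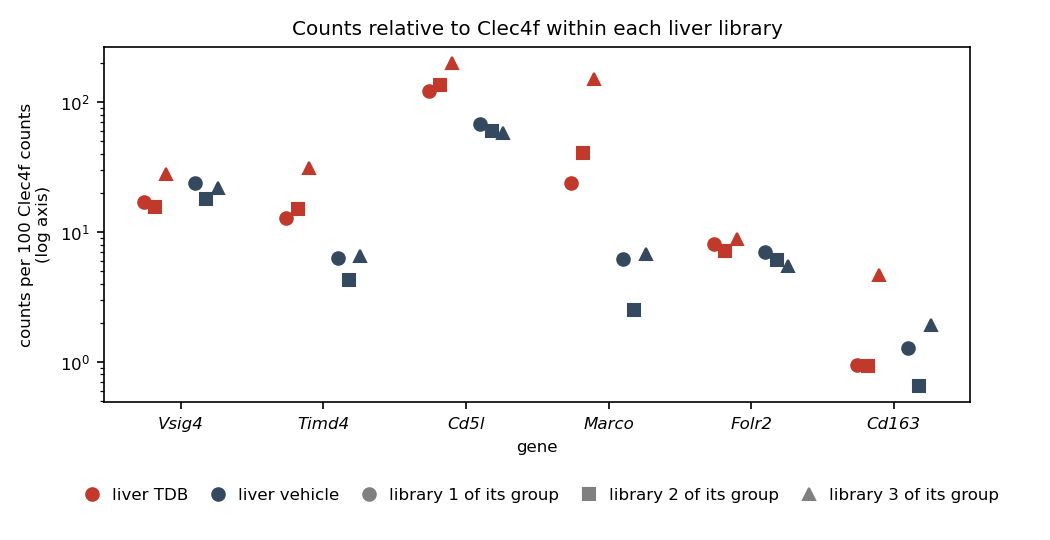
Counts of the other 6 genes per 100 Clec4f counts in each liver library (log axis), TDB left of vehicle. The 3 TDB libraries lie above the 3 vehicle libraries for Timd4, Cd5l, Marco and Folr2, and the groups overlap for Vsig4 and Cd163. Clec4f, the divisor, was itself lower in every TDB library.

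Among other genes tied to Kupffer cells, few were called in liver. Of 10 other Kupffer cell genes tested, 1 rose and none fell, with a median log2 fold change of 0.04, the same as over all genes. At an unadjusted p under 0.05 there were 5 of the 10, and DESeq2 called 1. Beside Il18bp these were Fcna, Hpgd and Pltp, with log2 fold changes of -0.95, -0.50 and -0.74, and Kcna2, with 1.44. The one that rose was Il18bp, the secreted antagonist of IL-18, with 136 ± 41.1 CPM after TDB and 24.2 ± 6.03 CPM after vehicle (SD, n = 3 each; log2 fold change 2.37, SE 0.31, edgeR adjusted p = 0.034). Of 11 transcription factors of Kupffer cell identity, Irf8 alone rose, with 35.6 ± 6.55 CPM after TDB and 10.7 ± 0.695 CPM after vehicle (SD, n = 3 each; log2 fold change 1.62, SE 0.22, edgeR adjusted p = 0.034). Both calls were lost when any vehicle library or TDB library 2 was left out. Spic, a factor of red pulp and bone marrow macrophages that handle iron, had a log2 fold change of 0.85 (edgeR adjusted p = 0.47), and Nr1h3, which encodes the oxysterol receptor LXR alpha, had -0.25 (edgeR adjusted p = 0.87).

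No gene passed the edgeR test in liver among 11 niche signals and receptors (median log2 fold change 0.30), 10 further scavenger receptors (-0.01), 10 genes of dead cell uptake (0.34) and 7 ligands and partners of the 7 genes (0.46). In these lists Csf1r, the receptor that macrophages need for survival, had a log2 fold change of 0.11, and C3, the source of the ligands of Vsig4, had 0.49. Hp, which encodes haptoglobin, had 0.80. At an unadjusted p under 0.05 the 4 lists held Dll4, Msr1, Axl, Gas6, Havcr2 and Hmox1, and DESeq2 called 1 gene in them, Havcr2, as higher.

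Markers of other cells were measured in the same livers. Of 14 pan-macrophage genes none passed the edgeR test, with a median log2 fold change of 0.35, and their summed level was 807 to 1030 CPM after TDB and 578 to 759 CPM after vehicle. Of 6 monocyte genes tested none passed, and the 8 listed summed to 44.5 to 58.4 CPM after TDB and 17.7 to 23.0 CPM after vehicle. Of 8 T cell markers 1 rose, Cd8a (log2 fold change 2.98, SE 0.44, edgeR adjusted p = 0.043), a call that was lost when any vehicle library or TDB library 2 was left out, and the sum was 23.3 to 32.6 CPM after TDB and 11.5 to 12.4 CPM after vehicle. These 3 sums did not overlap between the groups. The 9 hepatocyte markers measured summed to 104000 to 121000 CPM after TDB and 144000 to 175000 CPM after vehicle, again apart, with none of the 9 past the test. The 9 sinusoidal endothelial markers summed to 476 to 580 CPM after TDB and 424 to 497 CPM after vehicle, which overlapped. In the lists with no call, unadjusted p was under 0.05 for 4 pan-macrophage, 3 monocyte, 2 hepatocyte and 1 endothelial gene, and DESeq2 called 2 pan-macrophage genes (Fcgr1 and Ctss) and 2 monocyte genes (Ccr2 and Plac8) as higher. No marker of these 5 lists was at 0 throughout either liver group. Of 10 interferon-gamma response genes 9 rose; the median log2 fold change was 3.50, and 4 to 9 of them were called when 1 library was left out. The part of any of these in the values of Marco, Timd4, Clec4f or Vsig4 was not tested.

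The lists of neutrophil, dendritic cell, B cell, Lyve1-type macrophage, macrophage activation and mammary epithelial genes had no call in liver. Their median log2 fold changes were 0.36, 0.47, -0.34, -0.40, 0.75 and 0.54 over 5, 5, 4, 6, 8 and 6 genes tested. At an unadjusted p under 0.05 there were 0, 2, 0, 1, 4 and 1 genes, and DESeq2 called Clec9a, Ccl2 and Acod1 as higher. Leaving out TDB library 1 or 3 brought 1 dendritic cell gene and 1 monocyte gene past the threshold as higher, and without TDB library 1 a Lyve1-type gene passed as lower.

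**Figure D4:**
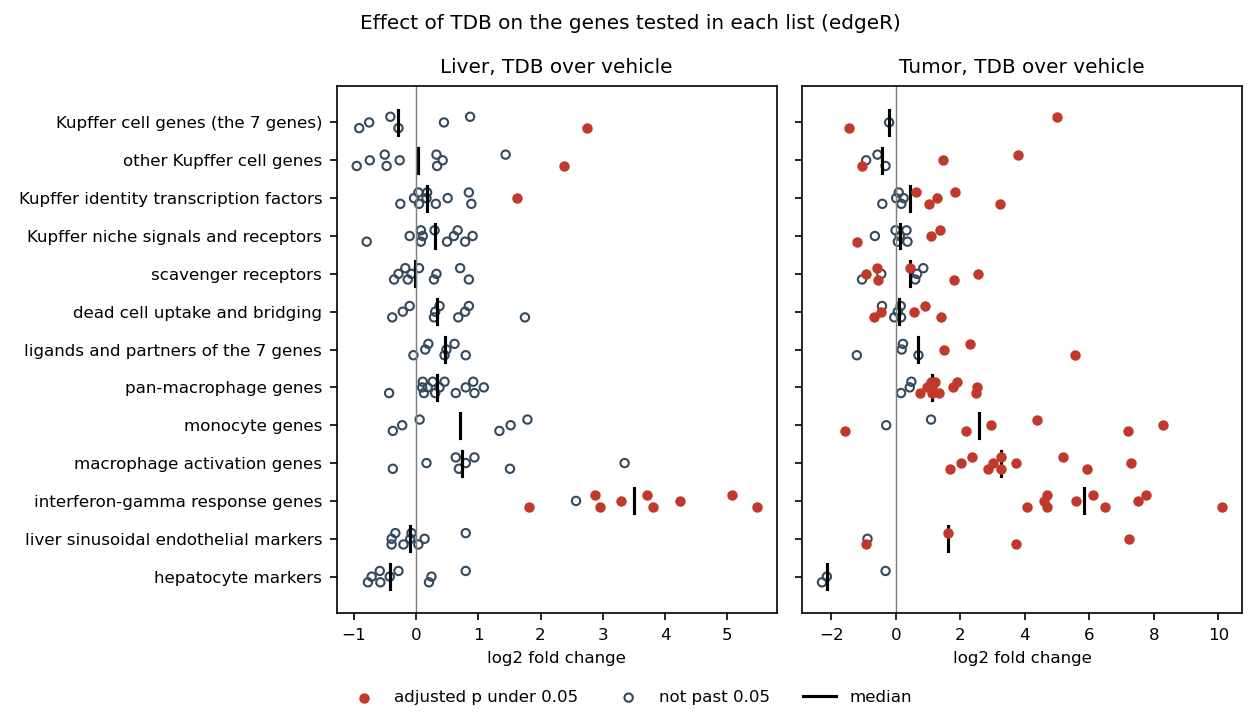
Log2 fold change of each gene tested in each list, TDB over vehicle, in liver (left) and tumor (right); filled points passed edgeR's adjusted p of 0.05, open points did not, and the vertical bar is the list's median. In liver the Kupffer cell lists lie around 0 with 1 gene past the test in each of the top 3 rows, while 9 of 10 interferon-gamma response genes lie to the right.

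The comparison of tumor with liver in vehicle mice gave the levels of the 7 genes where Kupffer cells live and in a tissue outside the liver. All 7 genes were lower in tumor (edgeR), against 37.8% of 15633 genes lower, 40.8% higher and 78.5% called either way. Clec4f, Vsig4, Timd4, Cd5l and Marco reached the filter on low counts only through the livers, which set the direction of their difference. The 7 genes were also chosen as genes of liver macrophages, so their count is not a free outcome to set against these shares. With scaling by library size alone all 7 were still lower, although the median over all genes moved to a log2 fold change of 1.42, against 0.08 with TMM. Ratios below are of summed CPM with exact 95% intervals that cover counting error only.

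Clec4f had no count in any of the 6 tumor libraries, where 3 counts amount to 0.102 to 0.144 CPM. Against 15938 counts over the 3 vehicle livers, it was at least 5810-fold lower in vehicle tumors, taking 3 counts over the group as the floor. Marco had no count in vehicle tumors, against 767 in vehicle livers, and was at least 279-fold lower. Vsig4 had 2 counts in vehicle tumors, against 3292 in vehicle livers, a ratio of 1800-fold lower with an interval of 498 to 14900. Cd5l had 16 counts in vehicle tumors, against 9808 in vehicle livers, and was 670-fold lower (412 to 1170). Timd4 had 7 counts in vehicle tumors, against 882 in vehicle livers, and was 138-fold lower (66.6 to 344).

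Folr2 and Cd163 had the smallest fold differences of the 7 genes. Folr2 measured 2.26, 1.10 and 2.28 CPM in vehicle tumors, against 18.0, 20.7 and 12.3 CPM in vehicle livers. It was 8.98-fold lower in tumor by CPM (7.42 to 10.9), and 0.0438 of the liver level in the TMM fit (log2 fold change -4.51, SE 0.33, edgeR adjusted p = 2.5e-06). Cd163 measured 1.44, 1.05 and 2.05 CPM in vehicle tumors, against 3.25, 2.20 and 4.33 CPM in vehicle livers. It was 2.15-fold lower in tumor by CPM (1.68 to 2.78), and 0.186 of the liver level in the TMM fit (log2 fold change -2.43, SE 0.35, edgeR adjusted p = 0.00018).

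**Figure D5:**
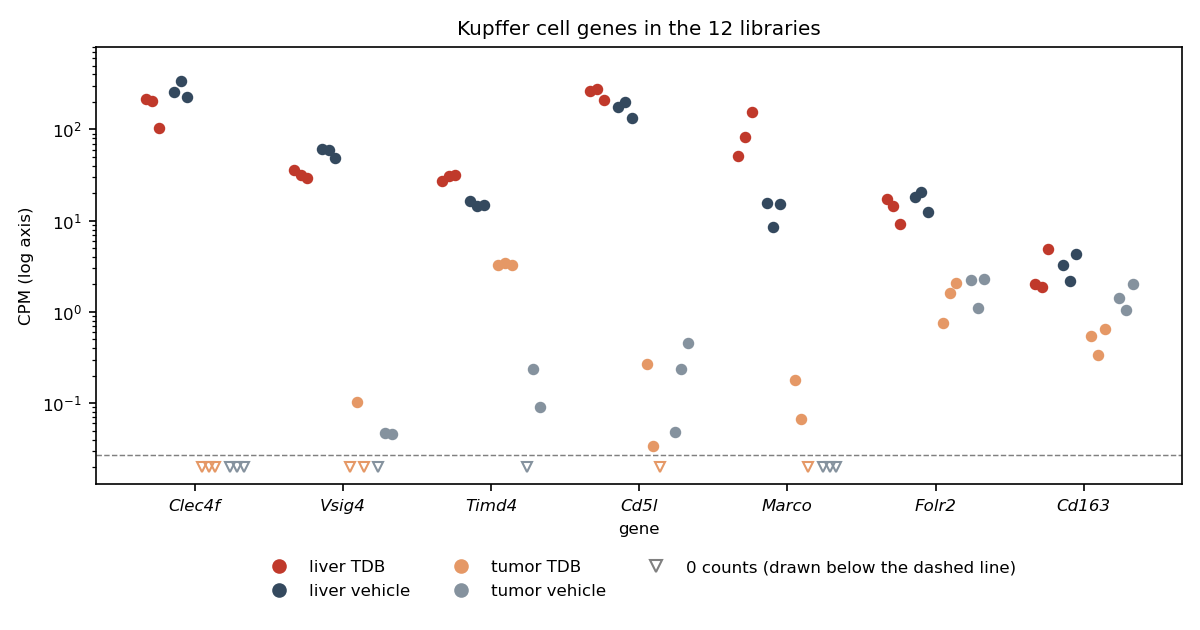
Level of each gene in the 12 libraries, in CPM on a log axis, with the 4 groups side by side; open triangles below the dashed line are libraries with 0 counts. All liver points of Clec4f, Vsig4, Cd5l and Marco lie at 8.49 CPM or above and all their tumor points at 0.455 CPM or below, while Timd4 in tumor lies at 3.24 to 3.44 CPM after TDB and at 0 to 0.238 CPM after vehicle.

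In tumor the antibody was followed by a rise of Timd4 and a fall of Cd163. Of the 7 genes 3 passed the filter on low counts, Timd4, Folr2 and Cd163. Timd4 reached the filter only through the TDB tumors, where it was high, so the number of calls among the 3 depends on the filter. Timd4 was called higher and Cd163 lower by edgeR, where 28.8% of 15454 genes were called, 15.8% higher and 13.1% lower. With scaling by library size alone the split of all calls moved to 1856 higher and 3996 lower, against 2437 higher and 2019 lower with TMM, and the median over all genes to -0.15, against -0.02. The calls of Timd4 and Cd163 held under that scaling.

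Timd4 had 73, 101 and 69 counts in TDB tumors, against 0, 5 and 2 in vehicle tumors. As CPM these were 3.28, 3.44 and 3.24 after TDB, against 0, 0.238 and 0.0911 after vehicle, and the groups lay far apart. Timd4 rose by 4.98 on the log2 scale (SE 0.50, edgeR adjusted p = 0.00014), and the ratio of summed CPM was 30.3 with a 95% counting interval of 14.5 to 76.2. The call held in all 15 alternatives, including each left-out library, but its size did not. The log2 fold change of Timd4 was 4.43 to 6.12 with 1 library left out and 0.09 to 5.36 in the other alternatives. Its level in TDB tumors, 1.53 CPM per kb, was still below the 6.97 CPM per kb of vehicle livers.

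The effect of TDB on Timd4 differed between the tissues. It was 4.04 larger in tumor than in liver on the log2 scale (SE 0.50, edgeR adjusted p = 0.0011 for the interaction), where 2.49% of 16557 genes had a different effect, 1.83% in the upward and 0.658% in the downward direction. On the log2(FPKM + 1) scale, where low values are compressed, this difference turned to -0.30 (limma adjusted p = 0.0036). With library-size scaling the median of this difference over all genes was -0.31, against -0.12 with TMM. The differences for Folr2, 0.16 (SE 0.58), and Cd163, -1.20 (SE 0.59), did not pass (edgeR adjusted p of 1 and 0.45).

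Cd163 had 0.540, 0.340 and 0.657 CPM in TDB tumors, against 1.44, 1.05 and 2.05 CPM in vehicle tumors, from 36 and 97 counts in all. The groups did not overlap, as for 52.5% of all genes tested in tumor, 15.6% higher and 36.9% lower after TDB. Cd163 fell by 1.46 on the log2 scale (SE 0.38, edgeR adjusted p = 0.019). The call was lost without vehicle library 1 or 3 or TDB library 1 or 2, with edgeR adjusted p of 0.051, 0.054, 0.054 and 0.083. Folr2 had 0.764, 1.63 and 2.06 CPM in TDB tumors, against 2.26, 1.10 and 2.28 CPM in vehicle tumors. These overlapped, with a log2 fold change of -0.21 (SE 0.41, edgeR adjusted p = 0.74).

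The other 4 genes stayed near 0 counts in tumor after the antibody. Clec4f had none in either group. Vsig4 had 3 counts in all in TDB tumors and 2 in vehicle tumors. Marco had 6 counts in TDB tumors, 4 and 2 of them in libraries 1 and 2, and none in vehicle tumors. Cd5l had 7 counts in TDB tumors, 6 of them in library 1, and 16 in vehicle tumors. None of these reached the filter of the tumor fit, so they were not tested within tumor.

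Transcription factors and other genes tied to Kupffer cells were read against the 28.8% of all genes called in tumor. Of 10 identity factors tested 5 rose and none fell, with Irf8 (log2 fold change 3.23, edgeR adjusted p = 8.6e-07), Spi1, which encodes PU.1 (1.82, edgeR adjusted p = 0.00019), Zeb2 (1.29) and Nr1h3 (1.03) at the top. Upper quartile and library-size scaling added 1 lower call to this list. Of 6 other Kupffer cell genes tested, Il18bp (3.78) and Pltp (1.45), a phospholipid transfer protein, rose, and Slc40a1, the iron exporter ferroportin, fell (-1.05, edgeR adjusted p = 7.4e-05). The lower calls in this list became 2 with upper quartile or library-size scaling and without vehicle library 2 or 3. Of 9 niche genes, the growth factor Csf1 (1.36) and its receptor Csf1r (1.09) rose, and the Notch ligand Dll1 fell (-1.20, edgeR adjusted p = 0.012).

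Receptors with roles like those of the 7 genes moved both ways in tumor. Of 11 further scavenger receptors 3 rose and 3 fell. Olr1, a receptor for oxidized low-density lipoprotein, had a log2 fold change of 2.54 (edgeR adjusted p = 0.022) and Msr1, a class A receptor like Marco, had 1.79 (edgeR adjusted p = 0.0076). Olr1 averaged 0.936 CPM after TDB and 0.169 CPM after vehicle. It reached the filter only through TDB tumors, and the size of its change rests on a level near 0. Scara5, a ferritin receptor, had -0.94 (edgeR adjusted p = 0.018) and Scarb1, the receptor for high-density lipoprotein, had -0.59 (edgeR adjusted p = 0.0010). Of 10 genes of dead cell uptake 3 rose and 2 fell. Havcr2, which encodes TIM-3, of the same family as Timd4, rose by 1.41 (edgeR adjusted p = 0.00077), and Axl, a receptor kinase that reads phosphatidylserine through a bridging protein, rose by 0.90 (edgeR adjusted p = 0.0033). Tyro3, its relative, fell by 0.68 (edgeR adjusted p = 0.0015).

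Of 7 ligands and partners 3 rose in tumor and none fell. C3 rose by 5.54, Hp by 2.30 and Ighm, the heavy chain of the IgM that carries Cd5l, by 1.48 on the log2 scale (edgeR adjusted p of 0.00042, 0.00042 and 0.0014). Vsig4, Cd163 and Cd5l themselves were at the low counts given above.

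Markers of other cells were measured beside Timd4 and Cd163 in tumor. Of 14 pan-macrophage genes 11 rose (10 to 11 when 1 library was left out), with a median log2 fold change of 1.12 and a summed level of 2050 to 2310 CPM after TDB and 625 to 847 CPM after vehicle. Cd14, the co-receptor for lipopolysaccharide, made up a large part of that sum, with 1040 ± 207 CPM after TDB and 204 ± 10.7 CPM after vehicle (SD, n = 3 each; log2 fold change 2.49, SE 0.15, edgeR adjusted p = 8.8e-06). Adgre1 (log2 fold change 0.43), Lyz2 (0.48) and Mertk (0.16) did not pass. Of 8 monocyte genes 5 rose and 1 fell, with a median log2 fold change of 2.57. Their summed level, 162 to 205 CPM after TDB and 112 to 226 CPM after vehicle, overlapped. Vcan, the largest term of the vehicle sum, averaged 82.5 CPM after TDB and 111 CPM after vehicle and did not pass (log2 fold change -0.30). Cx3cr1, the fractalkine receptor, fell, with 11.9 CPM after TDB and 38.5 CPM after vehicle (log2 fold change -1.57, edgeR adjusted p = 0.00023). Ly6c2 rose by 8.27 on the log2 scale, with 6.03 CPM after TDB and 0.016 CPM after vehicle, so the size of its change rests on a level near 0. Of 8 T cell markers 7 rose, with 14.6 to 23.9 CPM after TDB and 2.86 to 5.77 CPM after vehicle. Of 5 dendritic cell markers tested 4 rose, and the 7 listed summed to 15.1 to 21.1 CPM after TDB and 12.7 to 14.9 CPM after vehicle. All 11 macrophage activation genes and all 10 interferon-gamma response genes tested rose, with medians of 3.25 and 5.84. Among the genes that rose, Clec9a, Xcr1, Siglech, Ccr7, Cd3e, Cd8a, Cd3d, Cd2, Ly6c2, Chil3 and Il10 averaged 0 to 0.0799 CPM in vehicle tumors. Cd3g and Acod1, and Olr1, Mgl2, Dnase1l3 and Cxcr2 of other lists, averaged 0.169 to 0.323 CPM there. These genes reached the filter on low counts only through TDB tumors, so the counts of rises in their lists depend in part on the filter. In vehicle tumors the T cell marker Cd3e and the dendritic cell marker Clec9a were at 0 in all 3 libraries, and no marker of the 4 cell lists was at 0 throughout TDB tumors. The 5 B cell markers summed to 1.36 to 2.07 CPM after TDB and 0.240 to 0.319 CPM after vehicle, and none reached the filter. The part of any of these cells in the level of Timd4 or Cd163 was not tested.

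Of the remaining lists in tumor, 3 of 5 neutrophil markers tested rose. Of 5 sinusoidal endothelial markers 3 rose and 1 fell, and of 5 Lyve1-type macrophage genes 2 rose and 1 fell. Of 6 mammary epithelial markers 2 fell (1 to 3 under the other scalings), and of 3 hepatocyte markers tested none passed edgeR or had an unadjusted p under 0.05. Without a count filter DESeq2 called the hepatocyte marker Asgr1 lower.

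The genes whose profiles over the 12 libraries lay nearest to each of the 7 were found by the root mean square difference of log2 CPM, centred per gene, over 16557 genes. This measure is dominated by the gap between liver and tumor and describes these libraries only. Nearest to Clec4f was Sult3a2 (0.20), with 214 CPM in TDB livers and 297 CPM in vehicle livers. Nearest to Marco was Igfbp1 (0.65), with 71.0 CPM in TDB livers and 24.0 CPM in vehicle livers. Nearest to Timd4 was Apol9b (0.61), with 114 CPM in TDB livers and 32.1 CPM in vehicle livers, and 8.46 CPM in TDB tumors and 0.328 CPM in vehicle tumors. For Vsig4, Cd5l, Folr2 and Cd163 the nearest genes were Mup17 (0.26), Car5a (0.55), Smim6 (0.30) and Bche (0.30). None of the nearest 3 genes to any of the 7 was in the lists above. Among the 7 genes the closest pair was Clec4f and Cd5l (0.92), farther apart than each was from its nearest gene.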

How the data were processed

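Per the labels, total RNA of each tissue was purified on columns and made into Illumina libraries. The submitters' processing notes name GSNAP, limma and GRCm38 with no versions; the sources used here do not name the counter or its strand setting. The deposited table of raw counts per gene (52636 genes, 12 libraries, 18460159 to 29396324 counts each) was the input of all main results. The authors' deposited FPKM table, scaled by the authors for gene length and library size, was used as an alternative scale, on log2(FPKM + 1) and log2(FPKM + 0.1) with limma-trend. Gene names and exonic lengths came from GENCODE M21, and 52489 of 52636 identifiers matched.

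The 7 genes and the 18 lists were chosen with earlier results of these data known; 1 listed symbol, Tf, was not matched. Each contrast was fitted with edgeR 4.0.16 in R 4.3.3 (filterByExpr, minimum count 10, minimum total 15; TMM; robust quasi-likelihood), without a replicate block, at an adjusted p of 0.05. The script was tested on simulated data. Levels are plain CPM, fold changes are TMM-scaled, and intervals cover counting error only. From each list at most 4 genes were named, those past the threshold with the largest change, or, where none passed, those with the highest level; Spic, Nr1h3, Csf1r, C3 and Hp in liver, Cx3cr1 and Vcan in tumor and the genes named for an unadjusted p, a DESeq2 call or a miss of the test were chosen after their values were seen. DESeq2 1.42.0, limma-voom from limma 3.58.1, other scalings, no filter and left-out libraries were alternatives; library-size scaling was added after the data were seen. No protein sequence was used here.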

Additional observations from a re-analysis of the deposited data

Results flagged for a closer look

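The effect of TDB differed between tumor and liver, by the interaction term of edgeR, for 1 of the 7 genes and for 5 genes of the lists tied to them. The effect differed for 2.49% of all 16557 genes tested. All 7 genes were in this fit, but Clec4f, Vsig4, Cd5l and Marco were below the filter in tumor. Their differences rest on counts near 0 there and are not given. The lists also include genes below the filter in tumor. The 5 were 1 of 10 other Kupffer cell genes, 1 of 11 identity factors, 1 of 11 niche genes and 2 of 8 ligands and partners. Of 12 further scavenger receptors and 10 genes of dead cell uptake, 0 passed. For Timd4 the difference, tumor minus liver, was 4.04 on the log2 scale (edgeR adjusted p = 0.0011), with log2 fold changes of 4.98 in tumor and 0.87 in liver. For C3, the complement component whose fragments Vsig4 binds, it was 5.02 (edgeR adjusted p = 0.0011), with 5.54 in tumor and 0.49 in liver. For the phospholipid transfer protein Pltp it was 2.14 (edgeR adjusted p = 0.013), with 1.45 in tumor and -0.74 in liver. For Irf8 it was 1.57 (edgeR adjusted p = 0.0064), with 3.23 in tumor and 1.62 in liver. For Ighm it was 1.47 (edgeR adjusted p = 0.027), with 1.48 in tumor and -0.04 in liver. For the Notch ligand Dll1 it was -1.74 (edgeR adjusted p = 0.043), with -1.20 in tumor and 0.50 in liver. The interaction comes from 1 fit of all 12 libraries, so it need not equal the gap between the fits per tissue.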

How the results depend on the processing

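In liver 73 genes and 1 of the 7 (Marco) were called, against 320 genes and 3 of the 7 with DESeq2, 145 genes without a filter, and 26 genes and 0 of the 7 with log2(FPKM + 1). Of the 7 genes 0 were called with log2(FPKM + 0.1) and 0 with library-size scaling. Leaving out 1 library gave 14 to 163 genes and 0 to 1 of the 7; the lowest counts came without vehicle library 2 (14), 3 (17) or 1 (18) or TDB library 2 (24), and the highest without TDB library 3 (163). In tumor it gave 2942 to 4860 genes, 1 to 2 of the 7, and -0.49 to 0.10 for Folr2, positive without TDB library 1. For the difference between tissues 412 genes were called, against 856 with DESeq2, 1066 with log2(FPKM + 1), 777 with log2(FPKM + 0.1) and 241 to 696 with 1 library left out. There Timd4 turned to -0.30 with log2(FPKM + 1), past the threshold in the opposite direction (limma adjusted p = 0.0036), and to -0.02 with log2(FPKM + 0.1), where 0 of the 7 were called; a pseudocount compresses low values. Folr2 turned to -0.02 with library-size scaling and ranged from -0.12 to 0.46 with 1 library left out, and Cd163 turned to 0.02 with log2(FPKM + 1), both uncalled throughout. The cause of these changes, that of Timd4 included, was not tested. All 7 genes were lower in vehicle tumor than in vehicle liver in 15 of 15 alternatives. In the filtered fits Clec4f, Vsig4, Timd4, Cd5l and Marco were present only through liver, as said above.

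The labels do not say whether libraries of the same replicate number share anything, and this was not settled here. Deviations of same-numbered TDB and vehicle libraries correlated at -0.058, 0.297 and 0.462 in liver and at 0.058, 0.012 and 0.263 in tumor. The best match among vehicle libraries had the same number for TDB libraries 2 and 3 in liver and for TDB library 3 in tumor. With a replicate block 350 genes and 2 of the 7, Marco and Vsig4, were called in liver, and 258 genes for the difference between tissues. Depth limits Clec4f, Vsig4, Cd5l and Marco in tumor, where 0 to 16 counts per group were seen.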
